A study of Mus musculus with 15 samples.

Results

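*Phip* encodes a protein with WD40 repeats and a pair of bromodomains, and it is also known as *Brwd2*. It was examined together with its paralogues *Brwd1* and *Brwd3*, the insulin receptor gene *Insr*, the insulin-like growth factor receptor gene *Igf1r*, and the insulin receptor substrate genes *Irs1* and *Irs2*. These 7 genes are of 23132 kept from the 26150 gene identifiers in the read count table, and all 7 passed the filter on low counts in both tissues. *Phip* was chosen by its difference between the genotypes in these same libraries, so its genotype values are given as a description without a test. The other 6 genes were selected on their relation to *Phip* by family or pathway.

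The study sequenced RNA of individual male foetuses of C57BL/6 mice, with and without *Phf6*. This X-linked gene encodes a chromatin-associated protein with zinc fingers of the plant homeodomain type. The E15.5 cortex groups were *Phf6*+/Y (n = 3) and *Phf6*-/Y (n = 5), the latter from germline deletion of exons 4 and 5. The cortical neurons were taken at E16.5 and cultured for 1 day in medium that contained insulin. Their groups were *Phf6*+/Y;Nes-cre Tg/+ (n = 3, control neurons) and *Phf6* lox/Y;Nes-cre Tg/+ (n = 4, *Phf6*-deleted neurons), so that both carried the Nes-cre transgene, which drives recombination in neural progenitors and their descendants. Cells of other origin in the cultures would keep *Phf6*.

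Bromodomains bind acetylated lysines in histone tails, and WD40 repeats form propeller-shaped surfaces for binding other proteins. PHIP was named for its binding to the pleckstrin homology domain of IRS1, and it can also act as a substrate receptor of ubiquitin ligases built on CUL4 and DDB1 and bind histone H3 methylated at lysine 4. Insulin and insulin-like growth factors activate the receptor kinases INSR and IGF1R, which phosphorylate IRS1 and IRS2, and the substrates recruit phosphoinositide 3-kinase. Variants of PHIP and of BRWD3 are known causes of human intellectual disability.

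The promoters of the 3 BRWD family genes are shown because the family members differed from each other in the libraries, as described below. Each window holds 250 bases before and 50 bases after a transcription start in RefSeq (GRCm38.p6) and is written 5′ to 3′ on the strand of the gene, which is the minus strand for all 3. Capitals mark matches to the GC box GGGCGG on either strand, including matches that overlap. Of the 7 genes, 6 had a window in the table.
*Phip*, chr9:82975440-82975739: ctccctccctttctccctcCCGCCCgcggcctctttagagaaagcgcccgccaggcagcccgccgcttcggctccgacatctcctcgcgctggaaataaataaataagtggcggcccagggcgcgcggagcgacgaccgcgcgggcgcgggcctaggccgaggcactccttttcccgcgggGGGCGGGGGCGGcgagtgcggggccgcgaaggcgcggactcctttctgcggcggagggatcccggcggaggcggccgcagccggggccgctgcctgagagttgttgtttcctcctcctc
*Brwd1*, chr16:96082379-96082678: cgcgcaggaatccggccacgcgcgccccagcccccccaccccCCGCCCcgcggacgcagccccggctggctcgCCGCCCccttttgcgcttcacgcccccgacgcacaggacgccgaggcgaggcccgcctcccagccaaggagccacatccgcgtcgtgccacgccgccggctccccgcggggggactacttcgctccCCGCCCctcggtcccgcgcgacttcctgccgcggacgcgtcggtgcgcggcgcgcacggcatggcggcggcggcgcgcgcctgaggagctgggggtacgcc
*Brwd3*, chrX:108834297-108834596: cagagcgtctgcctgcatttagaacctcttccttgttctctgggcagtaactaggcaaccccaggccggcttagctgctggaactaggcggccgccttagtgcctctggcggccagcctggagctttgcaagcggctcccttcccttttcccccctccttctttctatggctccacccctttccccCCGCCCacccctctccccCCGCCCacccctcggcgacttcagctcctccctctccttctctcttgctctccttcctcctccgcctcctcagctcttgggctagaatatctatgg

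The windows of *Phip* and *Brwd1* held 72% and 80% G or C, with 41 and 52 CG dinucleotides. That of *Brwd3* held 61.7% and 11 CG dinucleotides. The GC box matched 3 times in *Phip*, 3 times in *Brwd1* and 2 times in *Brwd3*, and 35.7% of the 32851 promoter windows in the table held at least 1 match. No window of the 3 genes matched the ETS motif CCGGAAG, the cyclic AMP response element TGACGTCA, the FOXO motif TGTTTAC or the TATA motif TATAAA, which occurred in 8.86%, 1.79%, 3.65% and 13.6% of all windows. The *Phip* start used for the window lies 6.18 kb inside the annotated 5′ end of the gene. A match is a string of letters and not a binding site.

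The 15 libraries held 16858007 to 31157700 reads assigned to genes. Levels are given as CPM, the reads of a gene relative to the total of its library, scaled by TMM within each tissue. Reads of *Phf6* over all of its exons fell from a mean of 181 CPM (SD 21.5, n = 3) to 50.3 (SD 5.98, n = 5) in the cortex and from 233 (SD 16.1, n = 3) to 66.8 (SD 10.4, n = 4) in the neurons, without overlap between the genotypes. The summed levels of 8 progenitor markers were 1862 to 2136 CPM in *Phf6*+/Y cortex and 477 to 709 CPM in control neurons, and those of 6 markers of post-mitotic neurons 5027 to 5494 and 7655 to 8566 CPM. One *Phf6*-/Y cortex had 1182 CPM over 6 excitatory neuron markers, where the median of its group was 2028 and the controls had 2016 to 2134 CPM, and the summed level of 5 meningeal fibroblast markers ran from 11.9 to 518 CPM across the cortex libraries. For 5 choroid plexus markers the sums spanned 2.13 to 475 CPM among control cortices, 2.84 to 335 CPM among *Phf6*-null ones, 0.844 to 3.78 CPM among control neurons and 3.39 to 24.4 CPM among *Phf6*-deleted neurons. The part of these cells in the results was not tested. All results are from bulk RNA, in which fewer cells of a type and less RNA per cell cannot be told apart.

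*Phip* was higher in every *Phf6*-deleted library than in every control of the same tissue. Of all genes, 2.34% had this pattern in cortex and 3.67% in neurons. In *Phf6*+/Y cortex the level of *Phip* was 179, 193 and 217 CPM, and in *Phf6*-/Y cortex 248, 238, 244, 272 and 319 CPM. The groups did not overlap, and the lowest *Phf6*-/Y library stood clear of the highest control. In control neurons the level was 172, 126 and 175 CPM, and in *Phf6*-deleted neurons 176, 262, 199 and 216 CPM. The neuron groups touched: the lowest deleted library, from a litter without a control, was at 175.73 CPM and the highest control at 175.13.

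The fitted log2 fold change of *Phip* was 0.41 ± 0.07 (SE; 95% interval 0.25 to 0.56) in cortex and 0.52 ± 0.07 (0.37 to 0.67) in neurons, which is 32.4% and 43.4% more RNA. Within litters, the log2 ratio of the deleted to the control mean was 0.44, 0.32 and 0.47 in the 3 cortex litters and 0.61, 0.65 and 0.30 in the 3 neuron litters that held both genotypes, so all 6 litters had the same direction. A long non-coding RNA gene lies within the span of *Phip*, and reads of both cannot be told apart if strand was not used in counting. Over fits that left out 1 library at a time, the fold change stayed between 0.37 and 0.46 in cortex and between 0.45 and 0.63 in neurons.

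**Figure D1:**
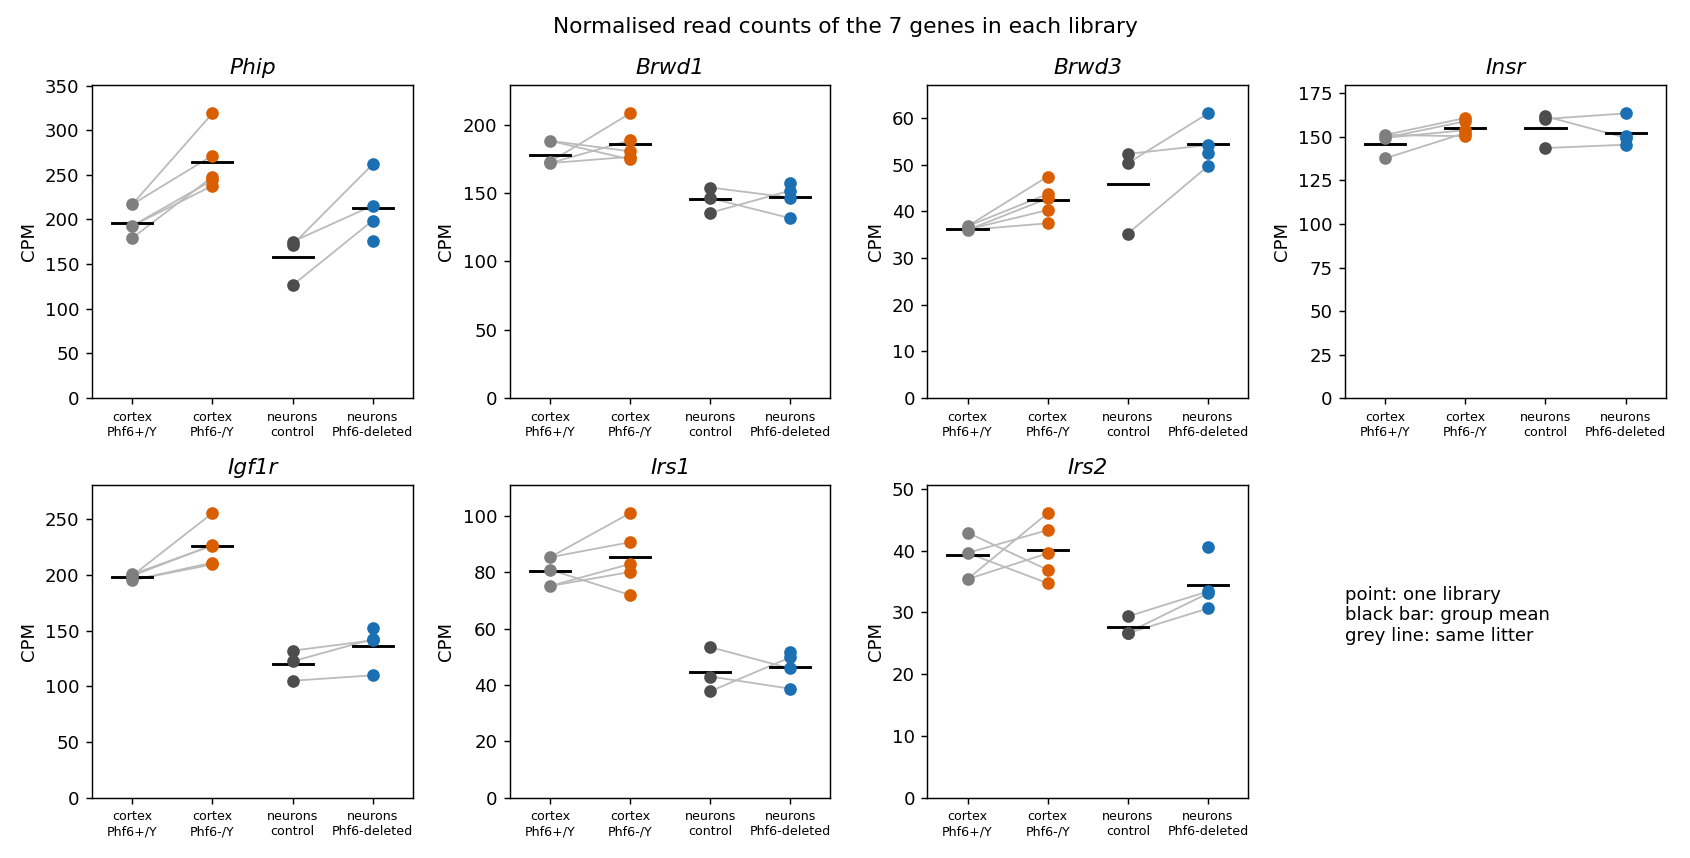
Normalised read counts (CPM, from 0) of the 7 genes in each library, by group, with the group mean as a black bar and grey lines joining libraries of the same litter. For *Phip* all 6 litters run upwards from control to *Phf6*-deleted, whereas for *Brwd1* the lines cross.

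The rise of *Phip* stood within a weaker shift of genes with long transcripts. *Phip* has 10729 bases of counted exons. Over the 685 genes of at least 8000 bases tested in the cortex, the median log2 fold change was 0.09 and 78.2% were positive, against a median of 0.00 and 49.4% over all 14750 genes. In neurons the median of the 670 long genes was 0.06 with 69.7% positive, against 0.00 and 50.3% over all 13909 genes. When the trend with gene length was removed from each library, the fold change of *Phip* was 0.30 in cortex and 0.45 in neurons, and the medians of the long genes were -0.01 and 0.00. Before this removal *Phip* stood above 92.4% of the long genes in cortex and 97.5% in neurons. Since *Phip* was chosen for its genotype difference, its place among the long genes is a description and not a test.

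*Brwd1*, the paralogue best known from germ cells and lymphocytes, had similar levels in both genotypes. It was at 173, 188 and 172 CPM in *Phf6*+/Y cortex and at 208, 174, 180, 176 and 188 CPM in *Phf6*-/Y cortex. In neurons the controls were at 136, 146 and 154 CPM and the deleted libraries at 157, 152, 131 and 147 CPM. The groups overlapped in both tissues. The log2 fold changes were 0.07 ± 0.07 (SE; -0.08 to 0.23; FDR = 0.780) and -0.02 ± 0.07 (-0.16 to 0.13; FDR = 0.959), so that differences of the size of that of *Phip* lay outside both intervals.

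*Brwd3*, which like *Phf6* is on the X chromosome, was higher on average in the deleted libraries of both tissues without passing the test over all genes. In *Phf6*+/Y cortex it was at 36.1, 36.0 and 36.8 CPM, and in *Phf6*-/Y cortex at 40.2, 37.4, 42.7, 47.4 and 43.7 CPM. The cortex groups did not overlap, although the closest libraries differed by little. In control neurons it was at 50.3, 35.2 and 52.3 CPM and in *Phf6*-deleted neurons at 52.4, 61.0, 49.7 and 54.2 CPM, with 3 of 4 deleted libraries above all controls. The log2 fold change was 0.21 ± 0.09 (SE; FDR = 0.393) in cortex and 0.27 ± 0.09 (FDR = 0.262) in neurons, and all 6 litters had a positive ratio, from 0.05 to 0.50. The neuron result depended on litter 6: without its control library the fold change was 0.38 (FDR = 0.00453), and without its deleted library 0.37 (FDR = 0.0179). Those fits also called far more of all genes, 494 of 14077 and 383 of 13812, in place of 38 of 13909.

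Of the receptors, *Igf1r*, which binds insulin-like growth factors, was at 200.5, 195 and 199 CPM in *Phf6*+/Y cortex and at 226, 209, 211, 255 and 227 CPM in *Phf6*-/Y cortex. All *Phf6*-/Y libraries were above all controls. In neurons the controls were at 122, 105 and 132 CPM and the deleted libraries at 152, 142, 110 and 141 CPM, which overlapped. The log2 fold changes of 0.19 ± 0.07 (SE; FDR = 0.325) and 0.13 ± 0.06 (FDR = 0.494) did not pass the test. With the length trend removed they were 0.07 and 0.04.

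*Insr*, the insulin receptor gene, was at 138, 151 and 150 CPM in *Phf6*+/Y cortex and at 152, 161, 150, 159 and 154 CPM in *Phf6*-/Y cortex. In neurons it was at 160, 144 and 162 CPM in controls and at 151, 164, 146 and 150 CPM in deleted libraries. The 4 ranges lay close together, and the log2 fold changes were 0.08 ± 0.06 (SE; -0.06 to 0.21; FDR = 0.711) and -0.02 ± 0.06 (-0.15 to 0.10; FDR = 0.940).

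Of the substrates, *Irs1*, the adaptor that binds PHIP, was at 80.9, 75.1 and 85.3 CPM in *Phf6*+/Y cortex and at 71.9, 80.0, 82.9, 90.6 and 101 CPM in *Phf6*-/Y cortex. In neurons it was at 53.4, 37.7 and 43.0 CPM in controls and at 51.7, 45.8, 49.8 and 38.7 CPM in deleted libraries. The genotypes overlapped in both tissues, with log2 fold changes of 0.06 ± 0.08 (SE; FDR = 0.856) and 0.00 ± 0.11 (FDR = 0.999).

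*Irs2*, the second widely expressed substrate, was at 42.9, 35.4 and 39.6 CPM in *Phf6*+/Y cortex and at 36.9, 39.6, 46.1, 43.3 and 34.7 CPM in *Phf6*-/Y cortex. In control neurons it was at 29.3, 26.6 and 26.7 CPM and in *Phf6*-deleted neurons at 40.5, 33.4, 30.6 and 33.1 CPM. The cortex groups overlapped, whereas all deleted neuron libraries were above all controls. The log2 fold change was 0.03 ± 0.11 (SE; FDR = 0.956) in cortex and 0.23 ± 0.09 (FDR = 0.369) in neurons.

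**Figure D2:**
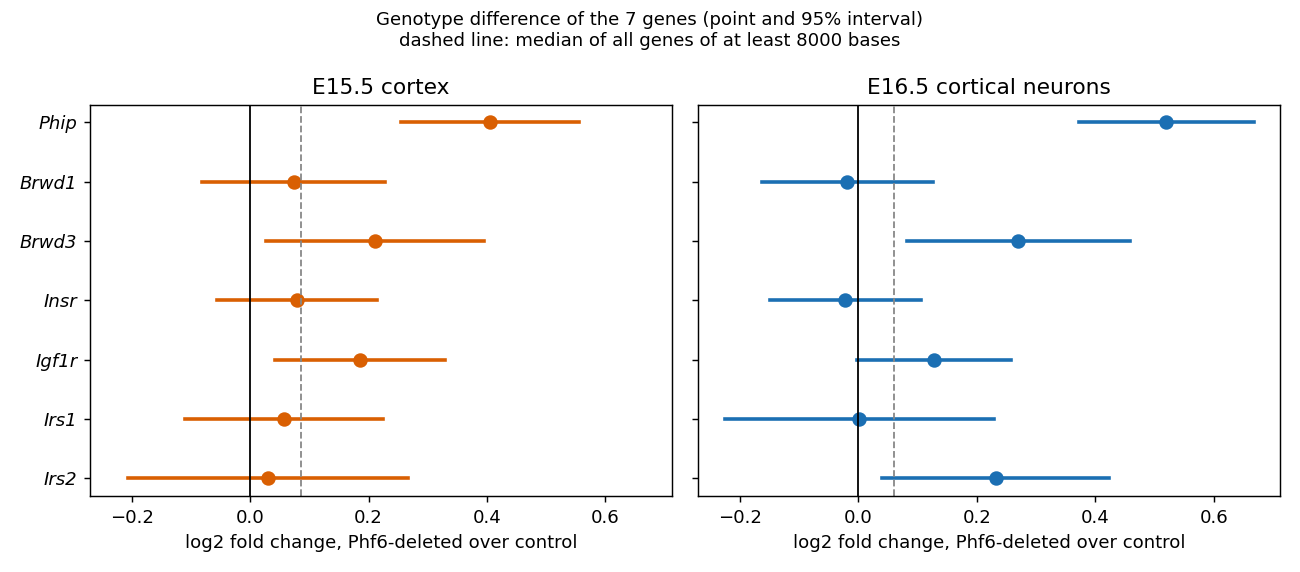
Fitted log2 fold change between *Phf6*-deleted and control libraries for the 7 genes in each tissue, with the point as the estimate and the bar as the 95% interval, and a dashed line at the median of genes of at least 8000 bases. *Phip* lies at 0.41 and 0.52, and *Brwd1*, *Insr* and *Irs1* include 0 in both tissues.

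None of the 6 genes tested against genotype passed an FDR of 0.05 in edgeR in the cortex, where 0.386% of all genes did, or in the neurons, where 0.273% did. DESeq2 and limma also called 0 of 6 in each tissue. At an unadjusted p under 0.05 there were 2 in the cortex (*Brwd3* and *Igf1r*) and 2 in the neurons (*Brwd3* and *Irs2*), against 1542 of 14750 and 1437 of 13909 genes. *Brwd3* and *Igf1r* were 2 of 6 with every *Phf6*-/Y cortex above every control, which held for 2.34% of all genes. *Irs2* was 1 of 6 with this pattern in the neurons, where it held for 3.67%.

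Whether the genotype difference itself differed between neurons and cortex was tested as an interaction over all 15 libraries. Of the 6 genes, 0 passed the test, and 0 had an unadjusted p under 0.05, while 0.0133% of all genes passed. DESeq2 and limma called 0 as well. The differences, neurons minus cortex, ran from -0.11 for *Insr* to 0.20 for *Irs2* on the log2 scale. For *Phip* the difference was 0.11 (95% interval -0.11 to 0.33), given without a test.

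The comparison of control neurons with control cortex did not enter the choice of the genes. In it 5 of the 7 genes passed the test, where 51.1% of all genes did. Age, culture, dissociation, the Nes-cre transgene and litter differ together with the tissue in this comparison and cannot be told apart. *Brwd3* and *Insr* were higher in the neurons, and *Igf1r*, *Irs1* and *Irs2* were lower.

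Within the BRWD family, the log2 fold change of neurons over cortex was 0.49 ± 0.13 (SE; FDR = 0.00817) for *Brwd3*. It was -0.16 ± 0.12 (FDR = 0.294) for *Phip* and -0.14 ± 0.08 (FDR = 0.182) for *Brwd1*. The interval for *Phip* ran from -0.43 to 0.11, and the control neuron library at 126 CPM was the lowest of the 6. Without that library the value for *Phip* was 0.0015.

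Of the receptors, *Igf1r* was lower in neurons by a log2 fold change of -0.57 ± 0.09 (SE; FDR = 1.65e-04) and *Insr* higher by 0.24 ± 0.08 (FDR = 0.0275), so the receptors moved in opposite directions. The substrates were both lower, *Irs1* by -0.69 ± 0.12 (FDR = 3.71e-04) and *Irs2* by -0.36 ± 0.11 (FDR = 0.0152). The calls for *Insr* and *Irs2* were the least stable of the 5. Both lost significance without *Phf6*+/Y cortex replicate 1 (FDR = 0.0947 and 0.0812) and without control neuron replicate 3 (FDR = 0.0666 and 0.0573), *Insr* also without control neuron replicate 1 (FDR = 0.0812) and *Irs2* without control neuron replicate 2 (FDR = 0.0748). Among the *Phf6*-deleted libraries the difference of *Irs2* was -0.08 (FDR = 0.552) and that of *Insr* 0.12 (FDR = 0.0932), while *Brwd3*, *Igf1r* and *Irs1* passed the test there too. *Brwd1* also passed it there (-0.19, FDR = 0.0314), and over all 15 libraries with genotype as a term (-0.17, FDR = 0.00687). The endothelial and progenitor markers fell in the neurons at the same time, all 8 of 8 in each list, with median log2 fold changes of -5.00 and -1.95. Within the neurons only 4 of the 8 endothelial markers passed the filter on low counts. The rest entered by their cortex levels, so that their fall was set by the filter. The part of both marker lists in these differences was not tested.

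**Figure D3:**
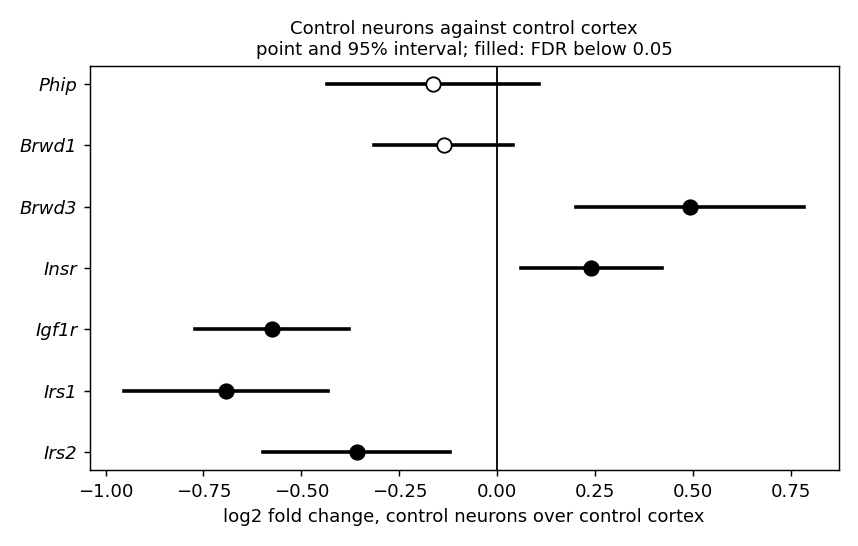
Log2 fold change of control neurons over control cortex for the 7 genes, with 95% intervals, and filled points for an FDR below 0.05. *Brwd3* (0.49) and *Insr* (0.24) lie to the right of 0, and *Igf1r* (-0.57), *Irs1* (-0.69) and *Irs2* (-0.36) to the left.

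Per length of counted exons (RPKM, the CPM divided by the length in kilobases), *Phip* had the highest median in 3 of the 4 groups. In *Phf6*+/Y cortex the medians were 18.0 for *Phip*, 16.6 for *Igf1r*, 16.0 for *Insr*, 15.4 for *Brwd1*, 9.87 for *Irs2*, 8.83 for *Irs1* and 5.61 RPKM for *Brwd3*. The ranges over libraries overlapped between *Phip* and *Igf1r*, between *Insr* and *Brwd1*, and between *Irs2* and *Irs1*, so those neighbours did not differ beyond their spread. The range of *Brwd1* (15.3 to 16.7 RPKM) also reached those of *Igf1r* and *Phip*. In *Phf6*-/Y cortex the order was the same, with *Insr* between 16.1 and 17.2 RPKM and medians of 23.1 for *Phip*, 18.9 for *Igf1r*, 16.0 for *Brwd1*, 9.85 for *Irs2*, 9.05 for *Irs1* and 6.64 RPKM for *Brwd3*. There the range of *Phip* (22.2 to 29.7 RPKM) no longer overlapped that of *Igf1r* (17.5 to 21.3 RPKM), which *Brwd1* still reached with its highest library at 18.5 RPKM.

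In control neurons the order of the medians was *Insr* at 17.1, *Phip* at 16.0, *Brwd1* at 13.0, *Igf1r* at 10.2, *Brwd3* at 7.82, *Irs2* at 6.65 and *Irs1* at 4.69 RPKM. The range of *Phip* (11.8 to 16.3 RPKM) overlapped those of *Insr* and of *Brwd1*, which did not overlap each other. The range of *Brwd3* (5.47 to 8.13 RPKM) overlapped those of *Irs2* and of *Irs1*. In *Phf6*-deleted neurons they were *Phip* at 19.3, *Insr* at 16.1, *Brwd1* at 13.3, *Igf1r* at 11.8, *Brwd3* and *Irs2* both at 8.28, and *Irs1* at 5.22 RPKM. *Phip* overlapped *Insr* here, and the ranges from *Brwd1* to *Irs2* formed a chain of overlaps. By these lengths *Brwd3* had the lowest median of the 7 in the cortex groups, and *Irs1* in the neuron groups.

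The order rests on the length used. With the union of all exons in GENCODE M21, which gives *Phip* 33312 bases in place of 10729, *Phip* fell from first to 6th in *Phf6*+/Y cortex, and *Igf1r* was first. *Brwd3* then had the lowest median in both neuron groups too, and *Irs1* was 5th in control and 6th in *Phf6*-deleted neurons. In control neurons these medians were 3.96 RPKM for *Brwd3* and 4.70 RPKM for *Irs1*. The deposited length was preferred because it belongs to the annotation in which the reads were counted. By the deposited lengths, *Phip* made up 44.3% to 49.1% of the summed RPKM of the BRWD family in *Phf6*+/Y cortex and 48.2% to 55.8% in *Phf6*-/Y cortex. In control neurons its share was 38.9% to 44.6% and in *Phf6*-deleted neurons 42.6% to 51.5%. The sum over the family was 37.7 to 41.2 RPKM in *Phf6*+/Y cortex and 43.5 to 53.3 RPKM in *Phf6*-/Y cortex, and the neuron groups, at 30.3 to 38.1 and 37.9 to 47.4 RPKM, overlapped.

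**Figure D4:**
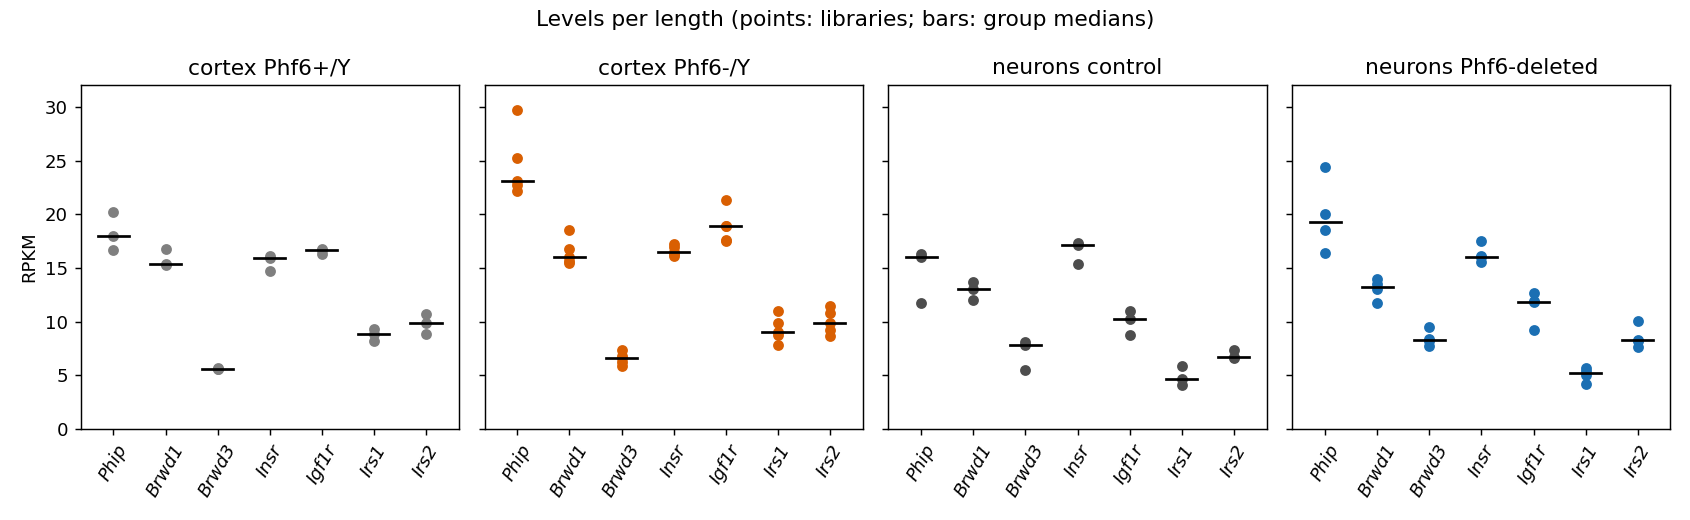
Levels per length (RPKM, from 0) of the 7 genes in each group, with points for libraries and bars for group medians. By the deposited lengths plotted here *Brwd3* has the lowest median in both cortex groups and *Irs1* in both neuron groups, and *Phip* reaches 29.7 RPKM in a *Phf6*-/Y cortex.

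Within the family, *Brwd3* varied with *Phip* from library to library and *Brwd1* did not. Over the 15 libraries, after the mean of each tissue was subtracted from log2-CPM, Pearson's r with *Phip* was 0.87 for *Brwd3* (Spearman's rho 0.87) and 0.17 for *Brwd1* (0.25). The points share genotype, litter and library composition, so these values are descriptions. For *Brwd3*, r was 0.82 in cortex and 0.91 in neurons, and 0.76 without the 2 libraries farthest from the median of *Phip*, control neuron replicate 2 and *Phf6*-deleted neuron replicate 2. Among 13732 genes, r with *Phip* had a median of -0.01 and a 99th percentile of 0.74, and *Brwd3* was 8th from the top.

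This likeness also moved with gene length. The median r with *Phip* was 0.42 over 666 genes of at least 8000 bases. With the length trend of each library removed, r was 0.70 for *Brwd3*, now 107th in order, and -0.42 for *Brwd1*. For the receptors and substrates, r was 0.64 for *Igf1r*, 0.56 for *Insr*, 0.40 for *Irs1* and 0.20 for *Irs2*, and with the trend removed 0.12, -0.26, 0.03 and 0.06. *Brwd3* was therefore the member closest to *Phip* by either measure.

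**Figure D5:**
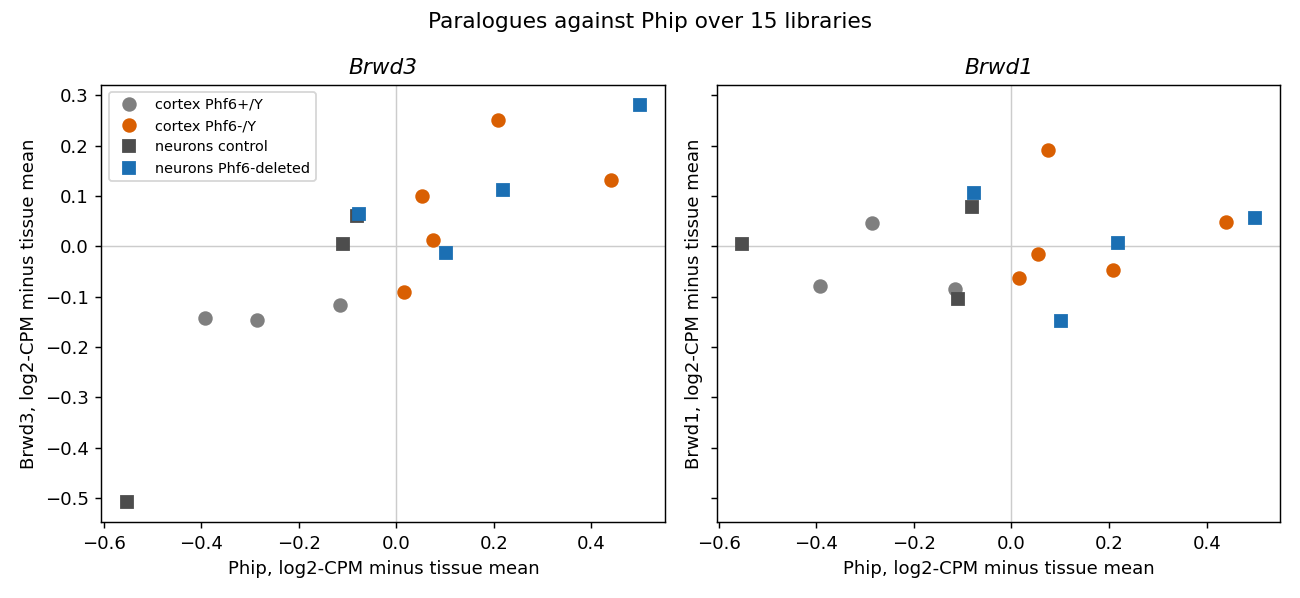
Level of *Brwd3* (left) and *Brwd1* (right) against *Phip* in the 15 libraries, each as log2-CPM minus the mean of its tissue, with circles for cortex and squares for neurons. *Brwd3* rises with *Phip* (r = 0.87), with control neuron replicate 2 lowest on both axes, and *Brwd1* shows little relation (r = 0.17).

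The 5 genes most like *Phip* by the same measure were *Csrnp3* (r = 0.93), *Pgap1* (0.92), *Dmxl1* (0.90), *Rfx3* (0.90) and *Tbc1d32* (0.89). Only the tissue mean was subtracted, so r holds the genotype difference by which *Phip* was chosen, and genes with a like difference stand high. In the order given, the genotype log2 fold changes of these genes were 0.35, 0.38, 0.20, 0.31 and 0.45 in cortex. In neurons they were 0.27, 0.36, 0.16, 0.26 and 0.35. The exons of these genes span 7240 to 12211 bases. With the length trend removed, 4 of the 5 were still the 4 closest of all genes (*Pgap1* 0.85, *Rfx3* 0.85, *Tbc1d32* 0.85 and *Csrnp3* 0.83), and *Dmxl1* was 18th at 0.79. *Pgap1* encodes an enzyme that remodels the lipid anchor of GPI-linked proteins, and *Rfx3* a transcription factor of ciliated cells.

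The genes around *Phip* on chromosome 9 did not follow it. *Phip* spans positions 82866159 to 82981668, and 6 tested genes start within 1 Mb. Their FDR in edgeR ran from 0.239 to 0.994 in cortex and from 0.375 to 0.906 in neurons, with log2 fold changes between -0.41 and 0.15 in cortex and between -0.25 and 0.06 in neurons. The nearest tested gene on one side, *Irak1bp1*, was at -0.10 ± 0.10 (SE; FDR = 0.774) and 0.06 ± 0.10 (FDR = 0.900), and *Hmgn3* on the other at -0.06 ± 0.08 (FDR = 0.856) and -0.17 ± 0.09 (FDR = 0.517). *Hmgn3* encodes a nucleosome-binding protein.

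No gene in the list of other insulin and insulin-like growth factor pathway genes passed the test between genotypes by edgeR. Of 53 tested in each tissue, 0 were called higher and 0 lower, with 8 and 9 at an unadjusted p under 0.05. The median log2 fold changes were -0.01 and 0.02. Over all genes, 1542 of 14750 in cortex and 1437 of 13909 in neurons had such a p. limma also called 0, and DESeq2 called 2 in the cortex (*Igfbp5* and *Irs4*, both higher) and 1 in the neurons (*Ptprf*, higher). Among all genes DESeq2 called 195 of 14750 and 63 of 13909. The ligand gene *Igf1* was low in the cortex, at 0.922 to 3.42 CPM in *Phf6*+/Y and 1.46 to 7.02 CPM in *Phf6*-/Y libraries, and at 6.00 to 8.42 and 7.19 to 12.3 CPM in control and deleted neurons. Its log2 fold changes were 0.93 ± 0.53 (SE; FDR = 0.597) and 0.58 ± 0.18 (FDR = 0.236). *Igf2*, the foetal growth factor gene, ranged from 46.6 to 261 CPM over the cortex libraries and was at most 3.64 CPM in the neuron libraries, with fold changes of 0.23 ± 0.64 (FDR = 0.947) and 0.40 ± 0.31 (FDR = 0.722).

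Between control neurons and control cortex, 16 of 54 genes of this pathway list rose and 16 fell, beside 3541 and 3777 of all 14320 genes (51.1% called), so the share called was near the background. The 3 largest differences among them were falls of *Igf2* (-5.59 ± 0.72, SE; FDR = 0.00339), of the insulin receptor-related receptor gene *Insrr* (-3.60 ± 0.69) and of *Igfbp7* (-3.49 ± 0.56; FDR = 0.00243), which encodes a secreted binding protein. *Insrr* was at 1.15 to 1.68 CPM in control cortex but at 0 to 0.208 CPM in control neurons. It passed the filter on low counts by the cortex libraries alone, so its fall is a description without a test. *Igfbp7* was also low in control neurons, at 0.312 to 2.53 CPM. *Igf1* rose (2.09 ± 0.41; FDR = 0.00145).

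Among 34 other bromodomain genes, 0 passed the test in the cortex (5 at an unadjusted p under 0.05, and 0 by DESeq2 and limma). In the neurons *Zmynd8*, which encodes a reader of acetylated histones, fell from 123 ± 5.76 CPM (SD, n = 3) to 94.1 ± 5.29 (n = 4), a log2 fold change of -0.41 ± 0.06 (SE; FDR = 0.00943). It was the only one of the 34 called there, also by DESeq2 and by limma. Among all genes edgeR called 0.273% in the neurons. Between control neurons and cortex 5 rose and 13 fell, a share of calls near the 51.1% of all genes, the largest being *Trim66* (1.63 ± 0.26; FDR = 1.52e-04), *Atad2*, a gene of dividing cells (-1.30 ± 0.13; FDR = 5.27e-06), and *Brdt* (1.00 ± 0.27; FDR = 0.00778).

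Of 26 genes of CUL4 ubiquitin ligases, the complexes PHIP can serve, 0 passed the test in either tissue between genotypes by edgeR, DESeq2 or limma, with 1 at an unadjusted p under 0.05 in cortex and 0 in neurons. In control neurons 8 were higher and 5 lower than in cortex, again near the 51.1% called among all genes, led by *Dtl*, a substrate receptor of replicating cells (-1.31 ± 0.25; FDR = 0.00265), *Dcaf13* (0.64 ± 0.09; FDR = 9.36e-05) and *Crbn* (0.61 ± 0.10; FDR = 1.96e-04). A list of 16 genes of histone H3 lysine 4 methylation held enzymes and subunits of their complexes. Of these 16, 0 passed in either tissue by any of the 3 tools, with 0 and 1 at an unadjusted p under 0.05. In control neurons 3 were higher and 6 lower, also near that 51.1%, led by the demethylase gene *Kdm1b* (0.48 ± 0.09; FDR = 8.18e-04) and the methyltransferase genes *Setd1b* (-0.47 ± 0.10; FDR = 0.00135) and *Kmt2d* (-0.41 ± 0.15; FDR = 0.0427).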

How the data were processed

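RNA was measured in 15 libraries, 1 per foetus, made with a stranded TruSeq kit. The authors aligned paired-end reads to mm10 and counted them by Entrez identifier, using featureCounts with the RefSeq annotation built into it. The deposited values are these raw counts, and the strand setting of the counting is not given in the sources used here, so reads of a gene and of a transcript antisense to it or within it cannot be told apart. All 15 sample files equalled their column of the series table. Rows without an identifier (1029, at most 0.605% of a library's reads) were left out. Of 26150 identifiers, those not matched in RefSeq GRCm38.p6 (875), pseudogenes (835), ribosomal RNA genes (35) and predicted genes (1273) were removed.

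Genotype was tested in each tissue alone with edgeR 4.0.16 (R 4.3.3): filterByExpr, TMM and the robust quasi-likelihood test of a model holding litter and genotype, at an FDR of 0.05 (Benjamini-Hochberg, over all genes tested). Litter comes from the labels. Litter-mates of opposite genotype correlated in their deviations from the group means with r from -0.16 to 0.46 in cortex and from 0.10 to 0.30 in neurons. Neuron litter 7 has no control and adds nothing to the genotype difference. Control neurons and control cortex were compared without a litter term, since each control has a litter of its own. SE and 95% intervals belong to the fitted log2 fold change. Correlations and the length trend (lowess of the log2-CPM deviations, prior count 2, on log2 length, used as an offset) are on TMM-scaled values. Both the length trend and the GENCODE lengths were chosen after seeing the data. DESeq2 1.42.0 and limma-trend (limma 3.58.1) were alternatives, with other scalings, no filter, no litter term and each library left out. Fits were tested on simulated data.

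The 7 genes and the gene lists were chosen with earlier results of these data known. Named were the 7 genes in every library, *Phf6*, listed genes called between genotypes, the 3 largest called differences of each list between control neurons and cortex, *Igf1*, *Igf2*, the tested genes flanking *Phip*, and the 5 genes most like *Phip*. *Igfbp5*, *Irs4* and *Ptprf* were named after their values were seen. P-values of the genotype and interaction fits with litter measure the spread between foetuses within litters. In the control comparison each foetus has its own litter, so the spread between foetuses and between litters cannot be told apart.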

Additional observations from a re-analysis of the deposited data

How the results depend on the processing

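*Phip* kept its direction in both tissues under every setting: 0.30 to 0.43 in cortex and 0.42 to 0.52 in neurons over scaling, filter, test, litter term and gene-length trend. The counts of the other 6 genes called stayed at 0 in cortex under every setting, and ran from 0 to 1 in neurons with 1 library left out, where *Brwd3* was called. The control comparison gave 4 to 6 calls over the settings and 3 to 5 with 1 library left out. Library totals in place of TMM moved the median of all genes there from -0.03 to -0.17 and the share of calls that were higher from 48.4% to 33.0%. *Phip* (-0.30, FDR = 0.0459) and *Brwd1* (-0.28, FDR = 0.0125) were then called and *Insr* (0.10, FDR = 0.334) was not, and with the length trend removed *Phip* was called (-0.22, FDR = 0.0365) and *Insr* was not (0.18, FDR = 0.0520). The replicate numbers of the titles do not mark litters, and same-numbered samples correlated with r from -0.24 to 0.25. With a replicate block in place of litter the counts were 0 in cortex, 0 in neurons and 0 for the interaction, and 5 for the control comparison. Of all genes, 57 were called in cortex and 38 in neurons. Without the litter term these were 1 and 1, with DESeq2 195 and 63, with no filter 114 and 297, and with the length trend removed 36 and 149, of which 59.1% were higher in place of 71.1%. Library totals gave 73 and the block 5 in neurons, and DESeq2 called 12 in place of 2 for the interaction. With 1 library left out they ran from 7 to 81 in cortex and from 16 to 494 in neurons.

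Signs changed in values that were not called under the setting concerned. Replicate block: *Irs1* -0.039 in cortex, *Brwd1* 0.014 in neurons, and for the interaction *Igf1r* 0.036 and *Irs1* 0.18. No litter term: *Brwd1* 0.015 in neurons. Library totals and no filter: *Irs1* -0.012 and -0.0037 in neurons. Length trend removed: *Brwd1* -0.036, *Insr* -0.0092 and *Irs1* -0.029 in cortex and *Irs1* -0.053 in neurons. With 1 library left out, the ranges in cortex were -0.0066 to 0.15 for *Irs1* and -0.10 to 0.13 for *Irs2*. In neurons they were -0.11 to 0.046 for *Brwd1*, -0.049 to 0.023 for *Insr* and -0.19 to 0.12 for *Irs1*, for the interaction -0.049 to 0.17 for *Brwd3* and -0.25 to 0.057 for *Irs1*, and for *Phip* between control neurons and cortex -0.23 to 0.0015. The causes were not tested. With the GENCODE length 14 of 24 neighbouring pairs of levels overlapped in place of 12. The union of RefSeq exons was not run.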

Other observations

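Genes with long transcripts moved together from library to library, and *Phip* moved with them in part. Of the 100 genes most like *Phip* over the 15 libraries, 50 had at least 8000 bases of counted exons, where 4.85% of the 13732 genes had that length. With the length trend of each library removed, 8 of the 100 closest did. The median deviation of the long genes from the tissue mean was lowest in control neuron replicate 2 (-0.21 on the log2 scale). In that library *Phip*, *Brwd3*, *Igf1r*, *Insr*, *Irs1* and *Irs2* were lowest among the neurons, although *Irs2* has only 4015 bases of counted exons. *Brwd1* was not lowest there. In the cortex the median of the long genes ran from -0.11 to -0.02 in the *Phf6*+/Y libraries and from -0.02 to 0.11 in the *Phf6*-/Y libraries. In the neurons the groups overlapped, at -0.21 to 0.08 in controls and -0.05 to 0.08 in deleted libraries. *Phip* and the long genes deviated in opposite directions in control neuron replicates 1 and 3 and *Phf6*-deleted neuron replicates 1 and 3. The same held for *Phf6*-/Y cortex replicates 1 and 2, and in the other libraries the directions were equal.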
